A study of Aedes albopictus with 4 samples.

Results

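Mitochondria make few of their own proteins, and most are made in the cytosol and brought in through translocases of the outer membrane (the TOM subunits) and of the inner membrane (the Tim subunits). Small molecules cross the inner membrane through carriers, mostly of the solute carrier family 25, and cross the outer membrane through voltage-dependent anion-selective channels. The genes described here are the 48 of 25320 in the deposited table whose product name holds one of a set of words for these machines (mitochondrial import, TOM or TIM with digits, solute carrier family 25, mitochondrial carrier, ADP,ATP carrier, mitochondrial pyruvate carrier, mitoferrin, or voltage-dependent anion-selective). They comprise 22 import subunits and 26 carriers and channels, all protein-coding. The table gives a cellular component for 9 of the 48, and it is mitochondrial in all 9 (the inner membrane in 6 and the outer membrane in 2). The words "translocase of" matched 0 names. Because only names were used, carriers under other names were left out, and they are given as a list of their own below.

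RNA was sequenced in 4 libraries from whole larvae in the fourth instar of the Asian tiger mosquito, Aedes albopictus. There were 2 libraries of larvae exposed to the herbicide diquat at 1/5 of its LC50 (the median lethal concentration) for profiling at 72 h, and 2 libraries of larvae with no treatment at the same time. Diquat is a bipyridyl compound that passes electrons to oxygen. The study text calls each pair a sample and its duplicate, and no source used here gives the strain or says that the larvae of a pair were reared or exposed apart, so the p-values measure the spread between these libraries, which may be technical.

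The values are the authors' normalized counts, from 45243090 and 48383964 reads in the diquat libraries and 34502559 and 39242657 in the control libraries. The diquat libraries were thus the deeper ones, and counting error was smaller there. All 48 genes passed the minimum mean of 10 normalized counts, and 45 of them had at least 100 reads in every library. Fold changes come from limma fitted to all 17992 tested genes on log2(value + 1), a scale that understates the change of low genes, with standard errors (SE) that draw each gene's variance toward the trend over all genes, and a gene is called where its Benjamini-Hochberg adjusted p is under 0.05. In these bulk samples, fewer cells of a type and less RNA per cell cannot be told apart. Marker lists of tissues differed between the groups in their summed values. For scale, 26.7% of all tested genes were called higher and 22.0% lower. The median log2 fold change was -1.17 in the epidermis list, 0.03 in muscle, -0.01 in midgut and -0.07 in fat body. Of 206 cuticle protein genes of the epidermis, the 153 tested had 129 lower and 5 higher, with a summed 375348 to 375640 normalized counts in diquat against 627987 to 633088 in control libraries. Muscle markers had 18 higher and 16 lower of 53, with sums of 1425946 to 1426418 in diquat against 1117490 to 1126800 in control libraries. Midgut proteases and peritrophins had 28 higher and 18 lower of 72 (331788 to 335013 with diquat, against 385641 to 390115 in controls), and fat body hexamerins and apolipophorins 2 higher and 4 lower of 9 (980713 to 984447 with diquat, against 1103708 to 1108587 in controls). None of the muscle or fat body markers were at 0 in all libraries, while 5 midgut and 3 epidermis genes were, and the part of tissue makeup in the results below was not tested.

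Most of the mitochondrial import and carrier genes were higher with diquat. Of all tested genes, 48.8% were called in either direction. Of the 48, 29 were called higher (60.4%), where 26.7% of all tested genes were, and 2 were called lower, where 22.0% of all tested genes were. The median log2 fold change was 0.30 over the 48 genes and -0.00 over all tested genes. Among the 15859 tested protein-coding genes, 29.6% were called higher and 22.1% lower, with a median of 0.03. The changes were small: the 29 genes rose by between 10.3% and 83.7% of their control mean, and 0 reached 2-fold. Both diquat libraries lay above both control libraries in 34 of the 48 genes (37.4% of all tested genes) and below them in 3 (35.5%), and the groups did not overlap in 73.0% of all tested genes. With a constant variance prior in place of the trend, 23 were called higher and 1 lower, and the calls lost were those of TOM70 (LOC109411692), Tim21, Tim13, mitoferrin, the phosphate carrier LOC109410440, member 35 (LOC109418468) and ADP,ATP carrier protein 2 (LOC109400515). Calls came more often at high values, in these genes as in the table at large. Of the 23 genes averaging 1000 normalized counts or more, 18 were called higher (45.6% of all tested genes in that range), as were 9 of 11 with a mean of 300 to 1000 (36.9%) and 2 of 14 below 300 (11.2%). Called lower were 0 from 1000 up (35.0% of all tested genes there), 0 from 300 to 1000 (25.3%) and 2 of the 14 below 300 (13.1%). The fold itself differed between the ranges, with a median log2 fold change of 0.43 from 1000 up, 0.45 from 300 to 1000 and -0.04 below 300. Over all tested genes in these ranges the medians were 0.07, 0.09 and -0.11, so the table at large was also lowest below 300.

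**Figure D1:**
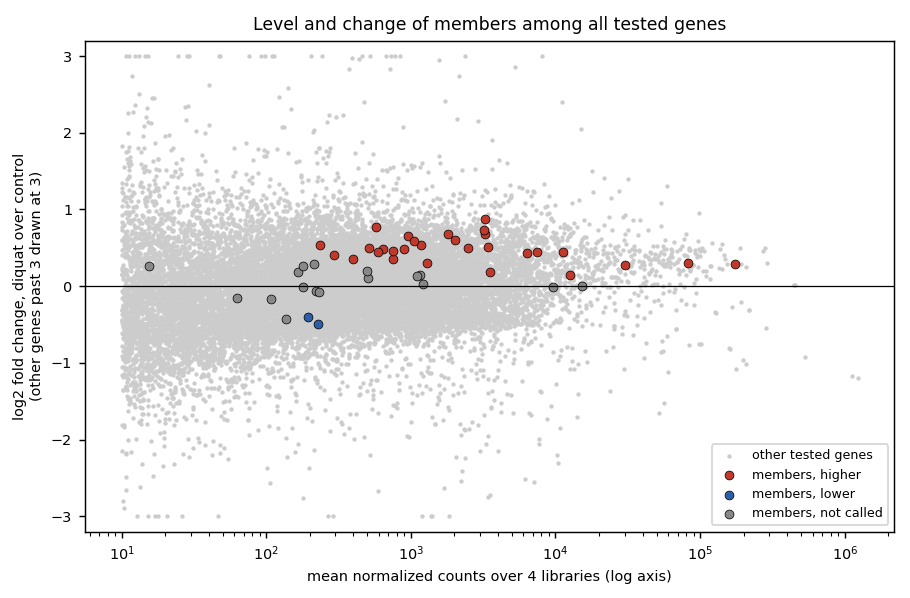
Log2 fold change (diquat over control, vertical) against the mean normalized counts over the 4 libraries (horizontal, log axis) for all 17992 tested genes, with the 48 import and carrier genes drawn large and coloured by their call. The 29 genes called higher lie mostly above a mean of 300, and the 2 called lower have means of 195.4 and 229.5.

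The presequence translocase of the inner membrane, which takes up proteins with a cleavable targeting sequence, held the largest rise. Of its 8 genes, 7 were called higher and 0 lower (26.7% and 22.0% of all tested genes), with a median log2 fold change of 0.49. Tim23 (LOC109420136), a core subunit of this translocase, had 4195 and 4193 normalized counts with diquat, against 2240.2 and 2326 in controls. The diquat libraries nearly coincided and lay far above both controls (log2 fold change 0.88 ± 0.04, SE, limma adjusted p = 1.02e-15). Its partner Tim17 is present as a pair of genes. Tim17-A (LOC109621587) had 4004 and 3952 normalized counts with diquat, against 2397 and 2593 in controls, and Tim17-B (LOC109400111) had 2214 and 2206 normalized counts with diquat, against 1353 and 1417 in controls. Both rose by 0.67 on the log2 scale (limma adjusted p = 8e-13 for Tim17-A and 4.61e-11 for Tim17-B), and the ratio of Tim17-A to Tim17-B within a library was 1.81 and 1.79 with diquat, against 1.77 and 1.83 in controls. Reads that fit both copies of a gene pair cannot be told apart in these values.

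TIM44 (LOC109409494), which holds the import motor to the channel, had 7362 and 7249 normalized counts with diquat, against 5328 and 5515 in controls (log2 fold change 0.43 ± 0.03, SE, limma adjusted p = 8.4e-12). With the trend on genomic span removed, TIM44 stood at 0.27, still called. TIM50-C (LOC109415679), the receptor that meets incoming presequences, had 595 and 604 normalized counts with diquat, against 438 and 408 in controls (log2 fold change 0.50 ± 0.10, SE). TIM16 (LOC109414136), a J-like protein that regulates the motor, had 783 and 725 normalized counts with diquat, against 554 and 523 in controls (log2 fold change 0.49 ± 0.09, SE). The groups were apart in each of these 3. TIM16 overlaps an uncharacterized gene whose value is 18.3% of its own and lower in both diquat libraries. Tim21 (LOC115255416), which links the inner and outer translocases, had 468 and 429 normalized counts with diquat, against 368 and 331 in controls (log2 fold change 0.36 ± 0.11, SE, limma adjusted p = 0.00866). The Tim21 call was lost without diquat replicate 1 (0.30, limma adjusted p = 0.121) and without control replicate 2 (0.28, 0.0582), and with the trend on genomic span removed (0.20, 0.155). TIM14 (LOC109398834), the J-protein of the motor, was not called: its groups overlapped, with 527 and 525 normalized counts with diquat, against 531 and 449 in controls, and the 95% interval of its log2 fold change ran from -0.10 to 0.32. Its value without control replicate 2 was -0.01.

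At the outer membrane, 5 of 7 genes were called higher and 0 lower (26.7% and 22.0% of all tested genes), with a median of 0.44. TOM40 homolog 1 (LOC109398864), the pore of the translocase, had 3987 and 4049 normalized counts with diquat, against 2903 and 2718 in controls (log2 fold change 0.52 ± 0.04, SE, limma adjusted p = 7.17e-11). TOM22 (LOC109416460), a receptor that also organizes the complex, had 2961 and 2846 normalized counts with diquat, against 1995 and 2126 in controls (log2 fold change 0.50 ± 0.05, SE). TOM20 (LOC109407537), the receptor for presequences, had 8563 and 8657 normalized counts with diquat, against 6392 and 6284 in controls (log2 fold change 0.44 ± 0.03, SE, limma adjusted p = 8.24e-13). In all 3 the diquat libraries lay above the controls by several times the gap between replicates. The receptor TOM70, which takes carriers as well as proteins without a presequence, has 2 genes. LOC115262164 had 718 and 654 normalized counts with diquat, against 499 and 509 in controls (log2 fold change 0.44 ± 0.09, SE). LOC109411692 had 879.6 and 820.2 normalized counts with diquat, against 733 and 598 in controls (log2 fold change 0.36 ± 0.09, SE, limma adjusted p = 0.00161), a call lost without diquat replicate 1 (0.31, limma adjusted p = 0.0682). Without control replicate 2 it stood at 0.21 (0.0474). The small subunit TOM7 (LOC109420003) had 1215 and 1232 normalized counts with diquat, against 1201 and 1015 in controls. Its groups did not overlap, yet it was not called (log2 fold change 0.15 ± 0.07, SE, limma adjusted p = 0.095), and without control replicate 1 it passed at 0.27 (0.00177), as it did at 0.33 with the trend on genomic span removed (0.000302). TOM40 homolog 2 (LOC109413944), with a mean of 62.4 normalized counts, had overlapping groups and a log2 fold change of -0.16 ± 0.28 that was 0.15 without diquat replicate 1.

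**Figure D2:**
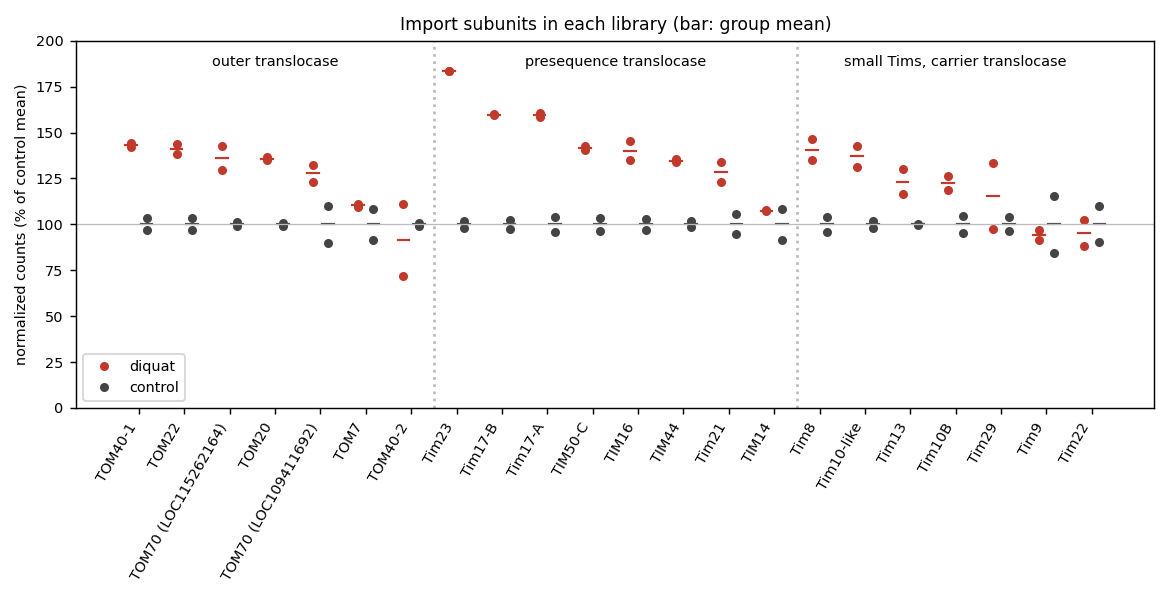
Normalized counts of the 22 import subunits in each library, as a percentage of the gene's control mean, with diquat (red) left of control (grey) and short bars at group means. Both diquat libraries of Tim23, Tim17-A and Tim17-B lie over 150% of the control mean, whereas Tim9, Tim22, Tim29, TIM14 and TOM40-2 overlap their controls.

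Carriers themselves mostly have no cleavable presequence. They are led across the intermembrane space by small Tim chaperones and are inserted by another translocase built around Tim22. Of these 7 genes, 3 were called higher and 0 lower (26.7% and 22.0% of all tested genes), with a median of 0.29. Tim8 (LOC109622277) had 1007 and 1091 normalized counts with diquat, against 776 and 716 in controls (log2 fold change 0.49 ± 0.08, SE, limma adjusted p = 5.16e-06), and the Tim10-like gene (LOC115253433) had 837 and 909.8 normalized counts with diquat, against 649 and 625 in controls (log2 fold change 0.45 ± 0.08, SE). Tim13 (LOC109423425), the partner of Tim8 in one chaperone complex, had 1354 and 1509.8 normalized counts with diquat, against 1166 and 1158 in controls (log2 fold change 0.30 ± 0.06, SE). The groups were apart in all 3. An uncharacterized gene with 23.5% of the value of Tim13 overlaps it in part. The 4 remaining genes were not called and all had means below 300. Tim10B (LOC109415737) had 243 and 229 normalized counts with diquat, against 201 and 184 in controls, with groups apart (log2 fold change 0.29 ± 0.15, SE, limma adjusted p = 0.106). Tim9 (LOC109400388), the partner of Tim10, had 209 and 222 normalized counts with diquat, against 264 and 193 in controls, and a gene named protein yippee with 242.1% of its value overlaps it in part. The insertase core Tim22 (LOC109423378) had 244 and 210.0 normalized counts with diquat, against 215 and 262 in controls, and Tim29 (LOC109416429), an accessory subunit known from human cells, had 149 and 204 normalized counts with diquat, against 159 and 147 in controls. The groups overlapped in Tim9, Tim22 and Tim29. Their 95% intervals ran from -0.39 to 0.26, from -0.38 to 0.24 and from -0.18 to 0.56, each with 0 inside it. Without one library the sign changed in all 3: Tim9 reached 0.16 without control replicate 1, Tim22 0.07 without control replicate 2, and Tim29 -0.03 without diquat replicate 2.

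Counted within each library, where the library's scaling factor cancels, the ratio of Tim23 to Tim22 was 17.2 and 20.0 with diquat, against 10.4 and 8.88 in controls. The ratios are not per length, so only their difference between libraries is read. An exact permutation test of this ratio, two-sided, gave p = 0.333, the smallest that 2 against 2 libraries allow. The pairs set against each other here and below were chosen after their values were seen.

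Among the carriers and channels, 14 of 26 were called higher and 2 lower (26.7% and 22.0% of all tested genes), with a median of 0.26. The ADP,ATP carriers, which export newly made ATP in exchange for ADP, went in both directions. The gene LOC109413463, named ADP,ATP carrier protein 1, had 191839 and 190819.8 normalized counts with diquat, against 156264 and 155843 in controls (log2 fold change 0.29 ± 0.01, SE, limma adjusted p = 6.29e-20). The other gene of that name, LOC134288418, had 91459 and 91131 normalized counts with diquat, against 74695 and 73520.0 in controls (log2 fold change 0.30 ± 0.01, SE, limma adjusted p = 2.24e-17). Under quantile normalization LOC134288418 stood at 0.10, still called. The difference was many times the gap between replicates in each, and the ratio of the first to the second stayed between 2.09 and 2.12 in the 4 libraries. In the AalbF5 annotation, LOC109413463 lies inside a gene named DAZ-associated protein 2, and how reads were divided between similar copies was not stated.

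Both genes named ADP,ATP carrier protein 2 were called lower. LOC109400515 had 175 and 207 normalized counts with diquat, against 281 and 255 in controls (log2 fold change -0.49 ± 0.15, SE, limma adjusted p = 0.00775). LOC134285570 had 171 and 166 normalized counts with diquat, against 224 and 221 in controls (log2 fold change -0.40 ± 0.15, SE, limma adjusted p = 0.0341). In each the diquat libraries lay below both controls. As a share of the normalized counts of all 4 ADP,ATP carrier genes, these 2 made up 0.122% and 0.132% with diquat, against 0.218% and 0.207% in controls (exact permutation test, two-sided, p = 0.333). LOC109400515 lost its call without diquat replicate 1 (-0.37, limma adjusted p = 0.117). LOC134285570 lost its call with any library left out: it stood at -0.42 (0.094) without diquat replicate 1, -0.37 (0.135) without diquat replicate 2, -0.39 (0.0895) without control replicate 1 and -0.41 (0.0747) without control replicate 2. It also missed the threshold with DESeq2 (0.0945), with no filter on low values (0.0507) and with the trend on genomic span removed (0.0804).

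The phosphate carrier, solute carrier family 25 member 3, brings in the phosphate from which ATP is made. LOC109401458 had 33297 and 33175 normalized counts with diquat, against 27734 and 27327 in controls (log2 fold change 0.27 ± 0.02, SE, limma adjusted p = 2.77e-13). LOC109410440, its neighbour in the AalbF5 annotation, had 13039 and 13243 normalized counts with diquat, against 11965 and 11859 in controls (log2 fold change 0.14 ± 0.02, SE, limma adjusted p = 1.3e-05). The groups were apart in both. Under quantile normalization LOC109401458 stood at 0.13, still called, and LOC109410440 at 0.04, not called (limma adjusted p = 0.0827). The ratio of LOC109401458 to LOC109410440 was 2.55 and 2.50 with diquat, against 2.32 and 2.30 in controls (exact permutation test, two-sided, p = 0.333). A member 3-like gene (LOC109425233) was near the minimum, at a mean of 15.5, and its groups overlapped.

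The pyruvate carrier is known in flies, yeast and mammals to work as a pair of unlike subunits, carrier 1 with carrier 2. Mitochondrial pyruvate carrier 1 (LOC109623083) had 2425 and 2472 normalized counts with diquat, against 1624 and 1603 in controls (log2 fold change 0.60 ± 0.05, SE, limma adjusted p = 1.14e-10). The pyruvate carrier 1-like gene (LOC134285685) had 1246 and 1293 normalized counts with diquat, against 841 and 851 in controls (log2 fold change 0.58 ± 0.07, SE, limma adjusted p = 4.87e-08). Pyruvate carrier 2 (LOC115268944) had 1211 and 1223 normalized counts with diquat, against 1194 and 1196 in controls. Its groups did not overlap, but the gap was 1.88% of the control mean, and the 95% interval of its log2 fold change, -0.10 to 0.16, lay below the intervals of both carrier 1 genes (0.50 to 0.70 and 0.45 to 0.72). Under quantile normalization pyruvate carrier 2 stood at -0.02. Within libraries, the ratio of pyruvate carrier 1 to 2 was 2.00 and 2.02 with diquat, against 1.36 and 1.34 in controls, and that of the 1-like gene to carrier 2 was 1.03 and 1.06 with diquat, against 0.704 and 0.712 in controls (exact permutation test, two-sided, p = 0.333 for each).

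**Figure D3:**
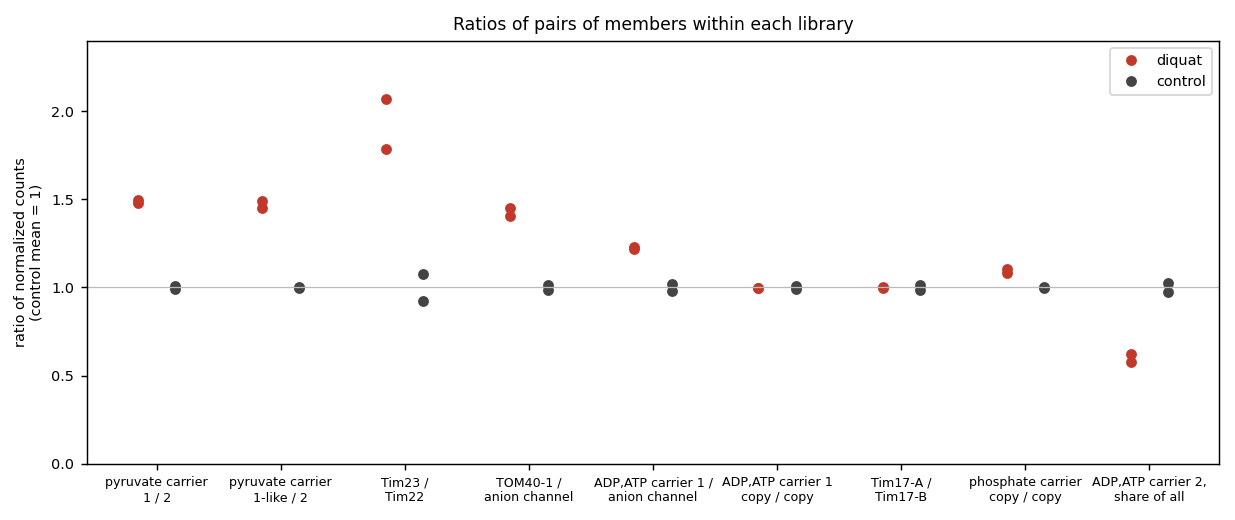
Ratios of normalized counts between pairs of import and carrier genes in each library, divided by the mean ratio of the controls, with diquat (red) left of control (grey). The ratios of pyruvate carrier 1 or 1-like to pyruvate carrier 2 lie near 1.5 with diquat, that of Tim23 to Tim22 lies highest, and the copies of ADP,ATP carrier 1 and of Tim17 keep their ratio.

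Of 12 carriers with other substrates, 7 were called higher and 0 lower (26.7% and 22.0% of all tested genes), with a median of 0.42. Solute carrier family 25 member 44 (LOC115271088), known in mammals to carry branched-chain amino acids, had 719 and 731 normalized counts with diquat, against 433 and 416 in controls (log2 fold change 0.77 ± 0.09, SE, limma adjusted p = 7.06e-08). It lies inside a gene named SH2B adapter protein 2 in the AalbF5 annotation, whose own values, 6167 and 6295 with diquat against 6581 and 6197 in controls, overlapped between groups. Rim2 (LOC115253702), a carrier of pyrimidine nucleotides, had 4008 and 3941 normalized counts with diquat, against 2481 and 2318 in controls (log2 fold change 0.73 ± 0.04, SE, limma adjusted p = 1.31e-13). Member 16 (LOC109397119) had 1156 and 1196 normalized counts with diquat, against 706 and 788 in controls (log2 fold change 0.66 ± 0.07, SE). The groups were apart in all 3. Member 32 (LOC109423339), linked in mammals to folate and flavin, had 12866 and 13248 normalized counts with diquat, against 9531 and 9671 in controls (log2 fold change 0.44 ± 0.03, SE, limma adjusted p = 4.13e-14). Mitochondrial carrier homolog 2 (LOC109407921), a carrier-like protein of the outer membrane that in human cells inserts proteins there, had 1319 and 1442 normalized counts with diquat, against 984 and 925 in controls (log2 fold change 0.53 ± 0.07, SE). In this pair, too, no diquat library came near a control.

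The S-adenosylmethionine carrier homolog (LOC109429182), which brings in the methyl donor of mitochondria, had 341 and 329 normalized counts with diquat, against 254 and 252 in controls (log2 fold change 0.40 ± 0.13, SE, limma adjusted p = 0.00912). Its call was lost without diquat replicate 1 (0.38, limma adjusted p = 0.0797). Member 35 is present as 4 genes that differed among themselves. LOC109418468 was called higher, with 252 and 306 normalized counts with diquat, against 176 and 206 in controls (log2 fold change 0.54 ± 0.15, SE, limma adjusted p = 0.00375), but not without diquat replicate 2 (0.40, 0.118). LOC109413251 had 114 and 115 normalized counts with diquat, against 127 and 189 in controls, below both controls, and a log2 fold change of -0.43 ± 0.20 that was not called (limma adjusted p = 0.0807). Without control replicate 1 it passed at -0.72 (0.00473), and in edgeR at -0.48 (0.048). LOC109432322 and the 35-like gene LOC115253485, which are neighbours inside a gene named in part protein draper with overlapping groups of its own, stood at 0.20 ± 0.10 and 0.26 ± 0.18 and were not called, though LOC115253485 passed without control replicate 2 (0.54, 0.0193) and stood at -0.02 without control replicate 1. Member 44-like (LOC134291785) and member 45 (LOC115267008), with means of 180.8 and 108.6, had overlapping groups and log2 fold changes of -0.00 and -0.16. Member 44-like, which lies inside a gene named signal peptide peptidase-like 3, stood at 0.18 without diquat replicate 2 and 0.07 without control replicate 2.

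Mitoferrin (LOC109398102), the iron importer of the inner membrane, had 3672 and 3837 normalized counts with diquat, against 3274 and 3336 in controls (log2 fold change 0.18 ± 0.04, SE, limma adjusted p = 0.000392). With the trend on genomic span removed it stood at 0.47, also called. In the AalbF5 annotation its span holds 12 other genes. The 9 of them that do not overlap each other had values summing to 49.1% of that of mitoferrin. Those include a gene named probable nucleoporin Nup54 at 20.2% and an uncharacterized gene, LOC109418994, at 14.5%. With the 9 taken off, 1888 and 1898 normalized counts were left with diquat, against 1608 and 1790 in controls. The difference of means was 0.16 on the log2 scale, with the groups still apart. This takes every read of a nested gene as also counted to mitoferrin, which is not known because the counter is not stated. Aralar1 (LOC115256091), the calcium-binding carrier of aspartate and glutamate, had 1100.5 and 1209 normalized counts with diquat, against 1063 and 1036 in controls. Its groups did not overlap, and it was not called (log2 fold change 0.14 ± 0.07, SE, limma adjusted p = 0.104). An uncharacterized gene with 184.1% of its value, lower in both diquat libraries, overlaps Aralar1 in part, and Aralar1 passed at 0.28 with the trend on genomic span removed (limma adjusted p = 0.000979).

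The voltage-dependent anion-selective channels, the general pores of the outer membrane, had 0 of 2 genes called in either direction (48.8% of all tested genes). LOC109433076 had 15256 and 15039 normalized counts with diquat, against 15436 and 14839 in controls, and the channel-like gene LOC115257640 had 9768 and 9528 normalized counts with diquat, against 9706 and 9662 in controls. The groups overlapped in both. With means of 15143 and 9666 normalized counts, the 95% intervals of their log2 fold changes were narrow, from -0.05 to 0.05 and from -0.06 to 0.05. Quantile normalization, unlike the other scalings tried, gave calls of -0.15 and -0.14 (limma adjusted p = 1.21e-05 and 6.73e-05). Set against LOC109433076 in the same library, TOM40 homolog 1, which shares its membrane, had a ratio of 0.261 and 0.269 with diquat, against 0.188 and 0.183 in controls. The ratio of ADP,ATP carrier protein 1 (LOC109413463) to the channel was 12.6 and 12.7 with diquat, against 10.1 and 10.5 in controls (exact permutation test, two-sided, p = 0.333 for each).

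**Figure D4:**
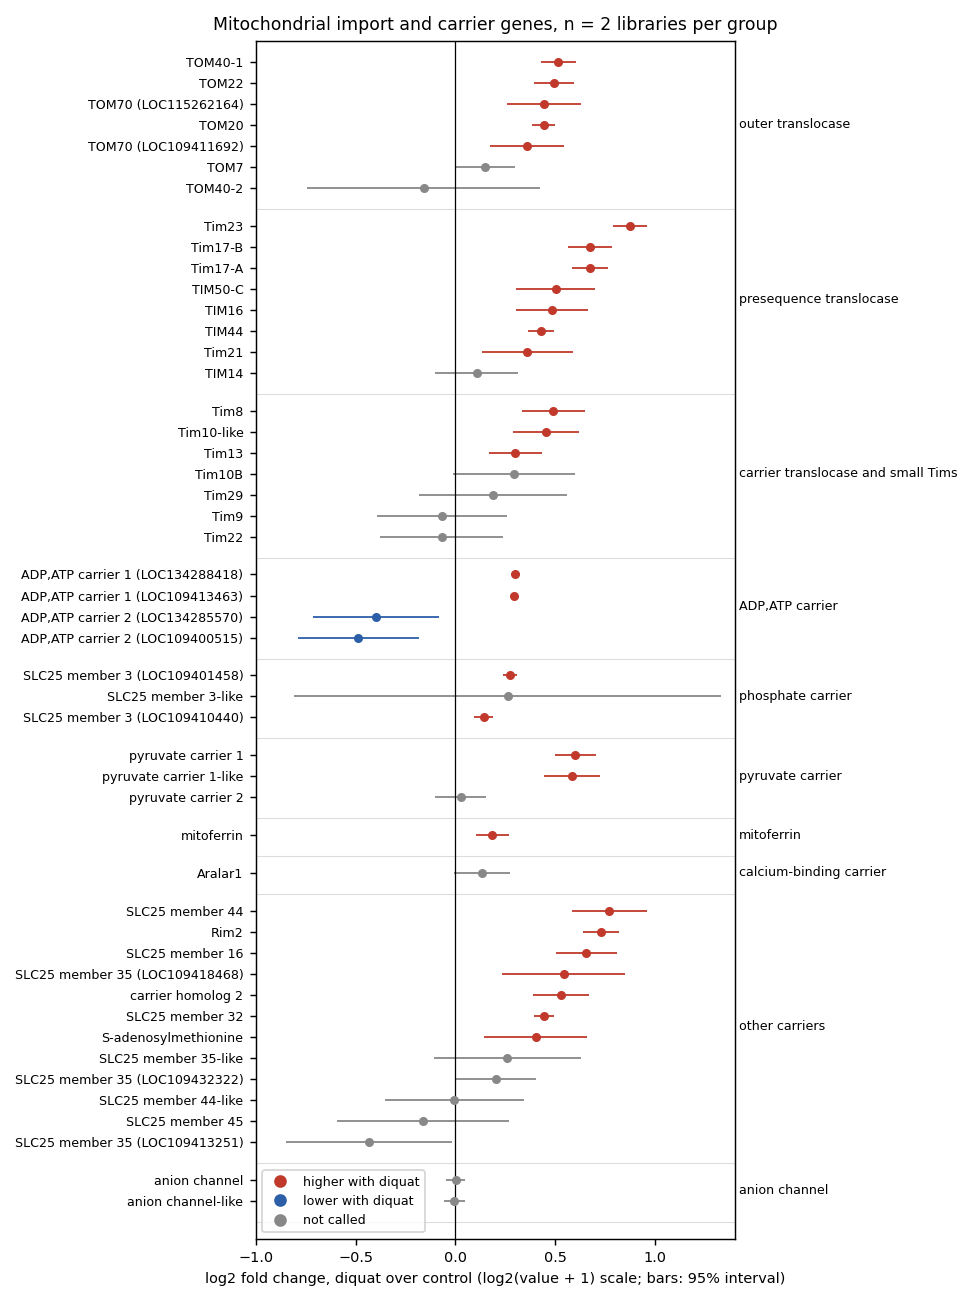
Log2 fold change (diquat over control) of the 48 import and carrier genes with its 95% interval from limma, by class and coloured by call, from 2 libraries per group. The 7 called presequence translocase genes lie between 0.36 and 0.88, the ADP,ATP carrier genes split into 2 higher and 2 lower, and both anion channels lie at 0 with narrow intervals.

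Proteins that work on imported precursors were described from a list chosen by name. Of its 20 tested genes, 15 were called higher and 0 lower (26.7% and 22.0% of all tested genes), with a median of 0.40. The 5 not called were metaxin-1, metaxin-2, metaxin-2-like, inner membrane protease subunit 2 and an import and assembly protein 40-B-like gene (LOC115255990). Heat shock 70 kDa protein cognate 5 (LOC109401240), the mitochondrial Hsp70 that powers the import motor, had 30709.5 and 30984 normalized counts with diquat, against 18683 and 18293 in controls (log2 fold change 0.74 ± 0.02, SE). The processing peptidase that cuts off presequences rose in both subunits. Subunit alpha (LOC109417751) had 3620.3 and 3367 normalized counts with diquat, against 1852 and 1974 in controls (log2 fold change 0.87 ± 0.05, SE, limma adjusted p = 3.36e-14). The subunit beta genes LOC109427461 and LOC109621246 had log2 fold changes of 0.37 and 0.42, both called.

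A list named inner membrane upkeep held prohibitins, the MICOS complex that shapes cristae, and mitochondrial proteases, lon and Clp of the matrix among them. Of its 18 genes, 13 were called higher and 0 lower (26.7% and 22.0% of all tested genes), with a median of 0.38. AFG3-like protein 2 (LOC109424157), a protease of the inner membrane, had 1627 and 1587 normalized counts with diquat, against 905 and 834 in controls (log2 fold change 0.89 ± 0.07, SE, limma adjusted p = 1.1e-11). Prohibitin 1 (LOC109404804) rose by 0.59, Mic60-like (LOC134283994) by 0.41 and the mitochondrial dynamin-like protein (LOC109399094), which fuses inner membranes, by 0.49. The Mic10, Mic10-like, MIC25 and MIC13 genes and the Clp proteolytic subunit were not called, at log2 fold changes between -0.19 and 0.04.

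Further carriers and ion channels under names that the rule does not take were mitochondrial, besides the peroxisomal membrane protein PMP34 (LOC115265400, not called). Of the 25 tested, 15 were called higher and 2 lower (26.7% and 22.0% of all tested genes), with a median of 0.13. Congested-like trachea protein (LOC109430629), a carnitine carrier in flies, rose by 0.49, mitochondrial ornithine transporter 1 (LOC109414682) by 0.66 and the probable glutathione transporter SLC25A40 (LOC109429504) by 0.68. The dicarboxylate carrier SLC25A8 (LOC109426896) had 1134 and 1267 normalized counts with diquat, against 1823 and 1746 in controls, and fell with the groups well apart (log2 fold change -0.57 ± 0.06, SE, limma adjusted p = 1.65e-08). The other fall was in the calcium uniporter protein (LOC109427318, log2 fold change -0.27 ± 0.04, SE), which overlaps 9 other genes.

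**Figure D5:**
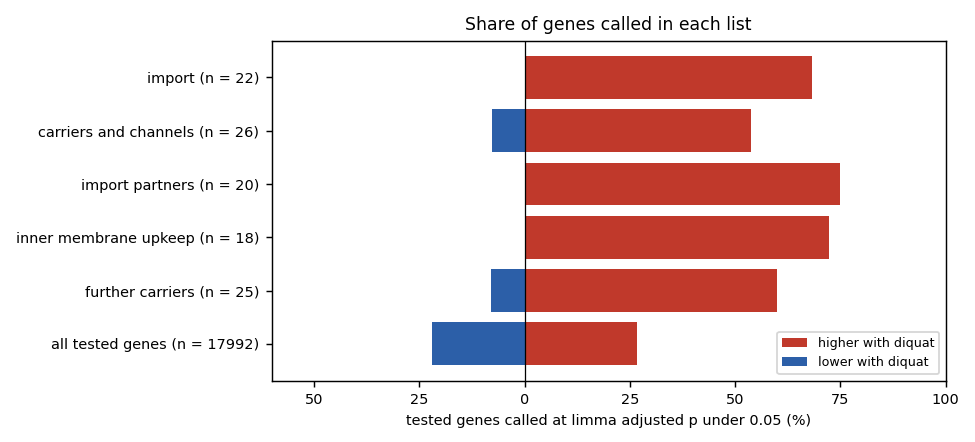
Share of tested genes called higher (red, right of 0) or lower (blue, left of 0) with diquat at a limma adjusted p under 0.05, in the 22 import subunits, the 26 carriers and channels, the 3 further lists and all 17992 tested genes. The import subunits have 68.2% higher and 0% lower, and all tested genes have 26.7% higher and 22.0% lower.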

How the data were processed

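The deposited signal is 1 normalized value per gene and library, made by the authors from their reads. Tools named in the submitters' processing notes, without their roles, are STAR 2.7.10a, fastp 0.12.4, bcl2fastq and DRAGEN. Counter, build, annotation, strand setting and normalization are not stated in the labels or headers. Every library's values (100%) were whole-number multiples of the lowest nonzero one, at a relative tolerance of 1e-06, and that step gave back whole reads. The tested genes had a mean of at least 10. limma 3.58.1 (R 4.3.3) used lmFit and eBayes, its prior following the mean, with two-sided p-values under Benjamini-Hochberg adjustment over 17992 genes. The prior held 22.7 degrees of freedom and each gene 2, so that standard errors rest mainly on the trend. Replicates differed beyond counting error (chi-square per gene 2.62 with diquat and 2.61 in controls).

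The genes and lists were chosen with earlier results of these data known. Names missed by the first patterns of the further lists (SAM50-like and heat shock protein 60A, for example) were added, and plasma membrane and acetyl-CoA transporters removed, by name alone. The peroxisomal PMP34 was kept. Values in every library were given for up to 6 genes per class that had the smallest p among those averaging 50 or more and for its most abundant gene. Up to 4 genes of smallest p were named per further list. Others were named, and phosphate carriers set apart, after values were seen.

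All identifiers were found in RefSeq's AalbF5 gene table, used only for overlap, neighbours and span. Of the 48 genes, 43 were placed on a chromosome and 12 of these overlapped another gene. Overlap was not examined for the 5 on unplaced scaffolds. Alternatives were other pseudocounts (0.5 and 5), filters (none and a mean of at least 50) and scalings, and a constant prior. Further ones were replicate number as a block, leaving out each library, and edgeR 4.0.16 and DESeq2 1.42.0 on recovered reads. Another left out overlapping genes and those on unplaced scaffolds. The last subtracted a loess trend (span 0.3) on genomic span per library. On counts simulated for diquat against control (17846 genes), limma found 18 of 49 genes with a 1.25-fold change and 38 of 50 at 1.5-fold. It found 43 of 49 at 2-fold and all 47 at 4-fold, besides 4 unchanged genes. Few genes were changed there, at a fixed dispersion, whereas 48.8% of tested genes were called in the data, so these counts do not give the sensitivity in the data.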

Additional observations from a re-analysis of the deposited data

How the results depend on the processing

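Over the 18 alternatives, the number of import and carrier genes called higher ran from 20 to 30, against 29. The 20 were of the 31 genes left without those that overlap another or lie on unplaced scaffolds. Of the 31 called genes, 22 kept call and direction wherever a value was given. No called gene changed sign. The number called lower, 2, was 1 with no filter on low values, with a constant variance prior, with DESeq2 and with the span trend removed, 3 with edgeR, 4 under quantile normalization, and 0 to 2 with 1 library left out. The cause of these shifts was not tested. Without overlapping and unplaced genes, 4962 genes of the table were called, against 8772, as fewer were tested. The replicate number as a block gave 29 higher and 2 lower, with 9056 calls over the table. Replicate differences of the groups did not correlate over the table (r = 0.012 over 17992 genes). With a single difference per group, this cannot tell whether some genes share a batch by replicate number, and no label states one. With 1 library left out, the lone library of its group is assumed to vary like the other group.

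Only genes that were not called changed sign. The log2 fold change of the anion channel LOC109433076 was -0.010 with median-ratio factors, -0.0032 with TMM factors, -0.0082 with equal totals, -0.15 with quantile normalization, -0.0031 with edgeR and -0.010 with DESeq2. With the span trend removed Tim9 was at 0.037, and with quantile normalization pyruvate carrier 2 was at -0.017. With 1 library left out, LOC109433076 ranged from -0.027 to 0.030, LOC115257640 from -0.023 to 0.012, Tim22 from -0.21 to 0.071, Tim9 from -0.29 to 0.16, Tim29 from -0.034 to 0.41, TIM14 from -0.014 to 0.23 and TOM40 homolog 2 from -0.47 to 0.15. LOC109425233 ranged from -0.074 to 0.60, LOC115253485 from -0.016 to 0.54 and LOC134291785 from -0.19 to 0.18. Among the 48 genes, standard errors were 0.13 or more below a mean of 300 normalized counts. The median log2 fold change of those 14 genes was -0.04, against -0.11 over all tested genes in that range.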

Other observations

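The gene named DAZ-associated protein 2 (LOC109414878), which holds ADP,ATP carrier protein 1 (LOC109413463) within its span in the AalbF5 annotation, had 211747 and 210911 normalized counts with diquat, against 174041 and 173059 in controls. Its mean over the libraries was 110.8% of that of the carrier.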
